A study of Mus musculus with 9 samples.

Results

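The acute phase response is the change in plasma protein synthesis that the liver makes on injury or infection. The 10 genes described here are serum amyloid A (Saa1, Saa2, Saa4), orosomucoid or alpha-1-acid glycoprotein (Orm1, Orm2), haptoglobin (Hp), inter-alpha-trypsin inhibitor heavy chain 4 (Itih4), lipocalin 2 (Lcn2), and the signal carrier Stat3 with its feedback inhibitor Socs3. They were chosen by name, 10 of the 54532 genes in the table, and all 10 were among the 11852 genes that passed the filter on low values, a mean of at least 0.5 FPKM. They were followed in livers of Cth knockout mice on plain drinking water, in livers of Cth knockout mice given betaine at 1% in the water, and in wild type livers on plain water, with 3 libraries a group. Cth encodes cystathionine gamma-lyase, the enzyme that makes cysteine from cystathionine, and betaine is a methyl donor for homocysteine. Both knockout groups carry the same Cth genotype, and the labels give neither the kind of allele nor strain, sex, age or batch. The series concerns the part Cth plays in chronic liver disease. The labels do not say that libraries of a group came from separate animals, so p-values measure only the spread between these libraries.

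As background, interleukin-6 binds its receptor Il6ra together with gp130 (Il6st), the kinases Jak1 and Jak2 phosphorylate STAT3, and STAT3 enters the nucleus and switches on acute phase genes and Socs3, which then blocks the kinases. Interleukin-1 and TNF act beside it through NF-kappaB, and C/EBP factors and the glucocorticoid receptor strengthen the response at many of the same promoters. In mouse liver Saa1 and Saa2 are the proteins with the widest range in this response, and neutrophils and Kupffer cells can also make Lcn2.

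The promoters of the members are part of the DNA on which these factors can act. RefSeq promoters on GRCm38.p6, from 250 bases before to 50 after each start, were matched for 8 of the 10 members, with Orm1 and Hp not among them. Saa1 and Saa2 lie next to each other on chromosome 7 and run in opposite directions, and their promoters were equal at 287 of 299 aligned bases. Bases 250 to 44 upstream of each start are shown because the 2 genes also varied together from library to library. The sequences lie at chr7:46743024-46743230 on the minus strand for Saa1 and chr7:46751583-46751789 on the plus strand for Saa2, and the capitals mark a match to the C/EBP motif.
Saa1: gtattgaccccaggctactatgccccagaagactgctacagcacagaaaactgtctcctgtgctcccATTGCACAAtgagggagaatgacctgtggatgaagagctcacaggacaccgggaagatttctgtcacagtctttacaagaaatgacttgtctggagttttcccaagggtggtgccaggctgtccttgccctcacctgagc
Saa2: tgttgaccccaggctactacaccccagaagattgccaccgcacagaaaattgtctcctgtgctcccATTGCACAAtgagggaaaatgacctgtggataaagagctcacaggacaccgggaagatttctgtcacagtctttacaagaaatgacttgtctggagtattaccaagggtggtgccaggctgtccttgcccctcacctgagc

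The same 9-base match began 183 bases upstream of the Saa1 start and 184 bases upstream of the Saa2 start. Orm2 and Itih4 are shown next, over 60 bases each, because they moved in opposite directions in the knockout. Any part of the motifs in those directions was not tested. The Orm2 stretch (chr4:63362315-63362374, plus strand) holds a C/EBP match that begins 109 bases upstream, and the Itih4 stretch (chr14:30886400-30886459, plus strand) holds a STAT match that begins 51 bases upstream, each in capitals.
Orm2: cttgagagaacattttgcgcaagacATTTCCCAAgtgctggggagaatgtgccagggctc
Itih4: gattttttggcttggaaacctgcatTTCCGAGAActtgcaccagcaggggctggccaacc

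Both strands were searched for 5 motifs. The STAT motif TTCNNNGAA occurred in Itih4 and Socs3, 2 of 8 member promoters, and in 8.30% of 32851 promoters of the same length. The C/EBP motif TTNNGNAAT occurred in Saa1, Saa2, Orm2 and Stat3, 4 of 8, and in 11.5% of all. The Saa1 and Saa2 promoters are near-copies with the same match, so they are not 2 separate cases. The shorter interleukin-6 response element CTGGGAA (11.1% of all promoters), the NF-kappaB motif (GGG and TTTCC with 2 bases between, 1.63%) and the glucocorticoid receptor motif (GNACA and TGTNC with 3 bases between, 0.475%) matched none of the 8. A match is a string of letters in a window and says nothing of binding in these livers.

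Expression was available as FPKM, the reads of a gene divided by its exon length and a library's scale, as deposited by the authors. With exon lengths from GENCODE M21, 98.3% to 98.6% of low values fell within 0.05 of a whole read, and the recovered totals were 15184972 to 17473958 reads per library. In a gene of 1 kb, 3 reads equal 0.162 to 0.222 FPKM, counting error only. Cth stood at 0.583, 0.278 and 0.770 FPKM in the knockout and at 0.319, 0.309 and 0.781 FPKM with betaine, against 285, 257 and 219 FPKM in wild type, so the genotype labels held in every library. Wild type replicate 3 had 26.6 FPKM of Xist and 0 reads of 4 Y-linked genes, while the other 8 libraries had at most 0.0124 FPKM of Xist and 1512 to 2393 Y-linked reads. This is the pattern of a female liver, and that of the other 8 libraries is the pattern of male livers, although the labels give no sex. Wild type alone thus holds both patterns, and its replicate 3 stands apart from its group. The part of sex in the differences from wild type was not tested. Calls of members and counts of lists that change without wild type replicate 3 are given both ways. The 8 hepatocyte markers summed to 33531 to 42579 FPKM in the knockout, 28405 to 39114 with betaine and 43225 to 61725 in wild type, sums led by Alb, itself a negative acute phase protein, at 25734 ± 3822 FPKM in the knockout, 22056 ± 4222 with betaine and 38321 ± 11115 in wild type (SD, n = 3 each). Gene by gene the markers went both ways, with a median log2 fold change of 0.01 in the knockout, Asgr1 at 0.53 and Apob at -1.06, the only one called (limma adjusted p = 0.00891). In bulk liver, fewer cells of a type and less RNA per cell cannot be told apart.

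In the knockout, Orm1 and Orm2 rose and Itih4 and Stat3 fell against wild type. These were 4 of 10 members, 2 in each direction, beside 25.6% of the 11852 tested genes, 12.8% higher and 12.7% lower (limma on log2(FPKM + 0.5) over all 9 libraries, Benjamini-Hochberg adjusted p under 0.05). The median log2 fold change was 0.90 over the 10 members and 0.02 over all tested genes. Between betaine and plain water in the knockout, 0 of 10 members passed, beside 0.0422% of all genes (0.0169% higher and 0.0253% lower), and 3 members had an unadjusted p under 0.05, beside 22.5% of all genes. In the betaine group against wild type, Saa1, Orm1 and Orm2 rose and Stat3 fell, again 4 of 10 beside 11.7% of all genes (5.87% higher and 5.78% lower). The comparisons share libraries in pairs, so their counts are not independent of each other.

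**Figure D1:**
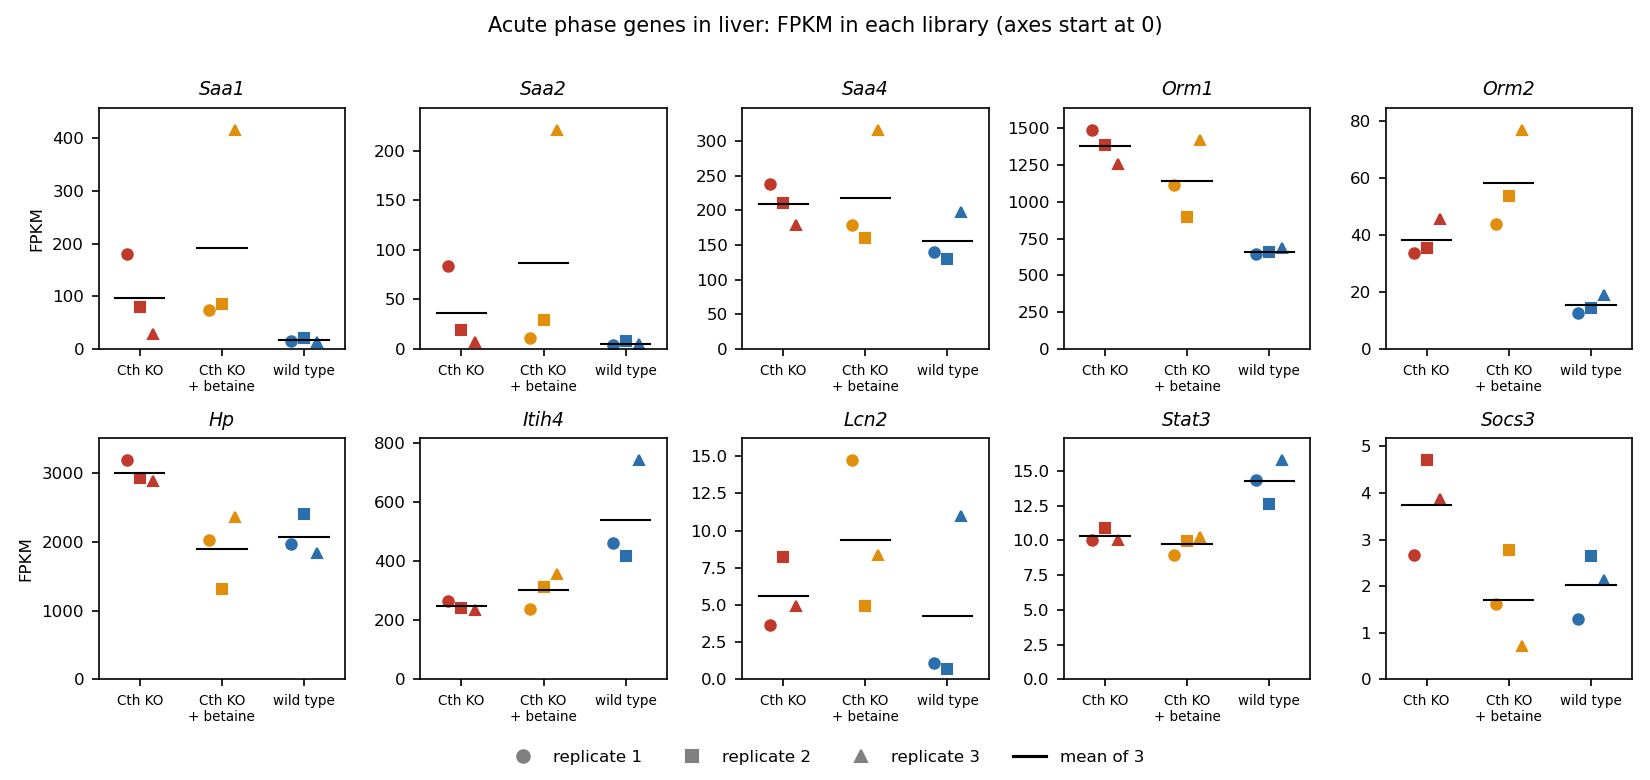
FPKM of the 10 genes in each of the 9 liver libraries, 1 panel a gene, with axes from 0, a symbol per library and a bar at the mean of each group. Orm1 and Orm2 sit above wild type in all 6 knockout libraries with and without betaine, Itih4 and Stat3 sit below it, and Saa1 and Saa2 reach 416 and 221 FPKM in betaine replicate 3.

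Orosomucoid, a plasma lipocalin that binds drugs and lipids, was higher in both knockout groups. Orm1 (chr4:63344560-63348163) had 1490.1, 1389 and 1259 FPKM in the knockout and 1116, 897 and 1418 FPKM with betaine, against 644, 660 and 685 FPKM in wild type. Neither knockout group overlapped wild type. The log2 fold change was 1.05 ± 0.18 (SE) in the knockout (limma adjusted p = 0.00678) and 0.76 ± 0.18 with betaine (adjusted p = 0.0288).

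Orm2 (chr4:63362449-63365878), the neighbouring and less abundant copy, had 33.7, 35.4 and 45.7 FPKM in the knockout and 44.0, 53.8 and 76.9 FPKM with betaine, against 12.5, 14.4 and 19.1 FPKM in wild type. Its lowest library in either knockout group stood above the highest wild type library. It was higher by 1.30 ± 0.23 in the knockout (limma adjusted p = 0.00763) and by 1.87 ± 0.23 with betaine (adjusted p = 0.00414), with 0.57 ± 0.23 between betaine and plain water (adjusted p = 0.187). The Orm1 to Orm2 ratio of FPKM was 27.5 to 44.2 in the knockout, 16.7 to 25.3 with betaine and 35.9 to 51.3 in wild type, so its betaine range lay below both other groups. Orm1 carried 92.9% to 97.9% of the summed FPKM of Orm1, Orm2 and Orm3 in every library.

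Several measurements bear on the size of the Orm changes. The coding sequences of Orm1 and Orm2 are equal at 89.9% of positions, and 20.4% of the 50-base words of the Orm1 transcript also occur in Orm2, so reads can be assigned to the wrong copy and the split between them is uncertain. Across 11849 genes the log2 fold change ran against exon length, with a Spearman rho of -0.461 in the knockout and -0.302 with betaine against wild type, and Orm1 and Orm2 have 775 bases of exon each. With that trend removed, Orm1 was at 0.56 in the knockout (limma adjusted p = 0.0381) and Orm2 at 0.81 (adjusted p = 0.0698). In the betaine group the same removal left Orm2 at 1.68 (limma adjusted p = 0.0114) and Orm1 at 0.57 (adjusted p = 0.0520). The Orm1 call with betaine was also lost, with an adjusted p of 0.0522 to 0.0928 in limma, without wild type replicate 1 or 2, knockout replicate 2, or betaine replicate 1 or 3. The part that exon length plays in these differences was not tested.

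Orm3 (chr4:63356162-63359511), the third copy between them, is not a member and had 5.94, 24.3 and 6.69 FPKM in the knockout and 41.9, 12.6 and 13.1 FPKM with betaine, against 1.15, 0.846 and 9.30 FPKM in wild type. The wild type value of 9.30 FPKM is replicate 3. Without that library Orm3 was higher by 2.81 in the knockout (limma adjusted p = 0.0266) and by 3.72 with betaine (adjusted p = 0.0162).

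Saa1 and Saa2, apolipoproteins of acute phase HDL, were the most variable members within both knockout groups, whereas in wild type Lcn2 was. Saa1 (chr7:46740497-46742980) had 181, 80.7 and 27.6 FPKM in the knockout and 74.0, 85.4 and 416 FPKM with betaine, against 15.9, 21.7 and 12.7 FPKM in wild type. Every knockout library, with or without betaine, stood above every wild type library, and the highest was betaine replicate 3. The log2 fold change was 2.14 ± 0.80 in the knockout, which missed the threshold (limma adjusted p = 0.0829), and 3.04 ± 0.80 with betaine, which passed it (adjusted p = 0.0471). The knockout value passed without knockout replicate 3 (2.84, limma adjusted p = 0.0442) and without betaine replicate 3 (2.14, adjusted p = 0.0401). The betaine value passed in 7 of 20 other settings, with adjusted p of 0.0386 to 0.113 over them. It missed the threshold without any 1 of the wild type or betaine libraries or without knockout replicate 2, and was 2.24 without betaine replicate 3 (limma adjusted p = 0.104).

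Saa2 (chr7:46751790-46754313) had 84.0, 18.8 and 7.57 FPKM in the knockout and 10.9, 29.2 and 221 FPKM with betaine, against 3.71, 7.77 and 5.16 FPKM in wild type. Knockout replicate 3 fell within the wild type range, while all 3 betaine libraries lay above it. The differences of 2.02 in the knockout (limma adjusted p = 0.227) and 2.86 with betaine (adjusted p = 0.142), each with an SE of 1.2, did not pass.

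The 2 genes followed each other from library to library, with a Pearson r of 0.959 over the 9 libraries on the log2 scale, given as a description of libraries that share groups and depth. Their sum was 265, 99.4 and 35.1 FPKM in the knockout and 84.9, 115 and 637 FPKM with betaine, against 19.6, 29.5 and 17.9 FPKM in wild type. Within the knockout the sum thus spanned more than the distance of its lowest library from wild type. The 95.1% equal coding positions of Saa1 and Saa2 make the split of reads between them uncertain, although only 9.11% of the 50-base words of Saa1 occur in Saa2. Their exon unions of 2478 and 2518 bases cover nearly the whole gene, longer than the 609 and 652 bases of the coding transcripts compared, so their FPKM understate the level per transcript and not the ratio between libraries.

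Saa4 (chr7:46727998-46732603), the constitutive serum amyloid A, had 237, 211 and 179 FPKM in the knockout and 178, 160.1 and 316 FPKM with betaine, against 140.0, 130 and 197 FPKM in wild type, and the groups overlapped. Its log2 fold changes of 0.44 ± 0.27 in the knockout (limma adjusted p = 0.240) and 0.44 with betaine (adjusted p = 0.293) did not pass, and its highest library was again betaine replicate 3. Saa3, the copy known from macrophages and adipocytes and no member, stayed low at 1.39, 1.78 and 1.60 FPKM in the knockout, 1.14, 1.35 and 0.310 FPKM with betaine and 1.39, 4.79 and 1.27 FPKM in wild type.

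**Figure D2:**
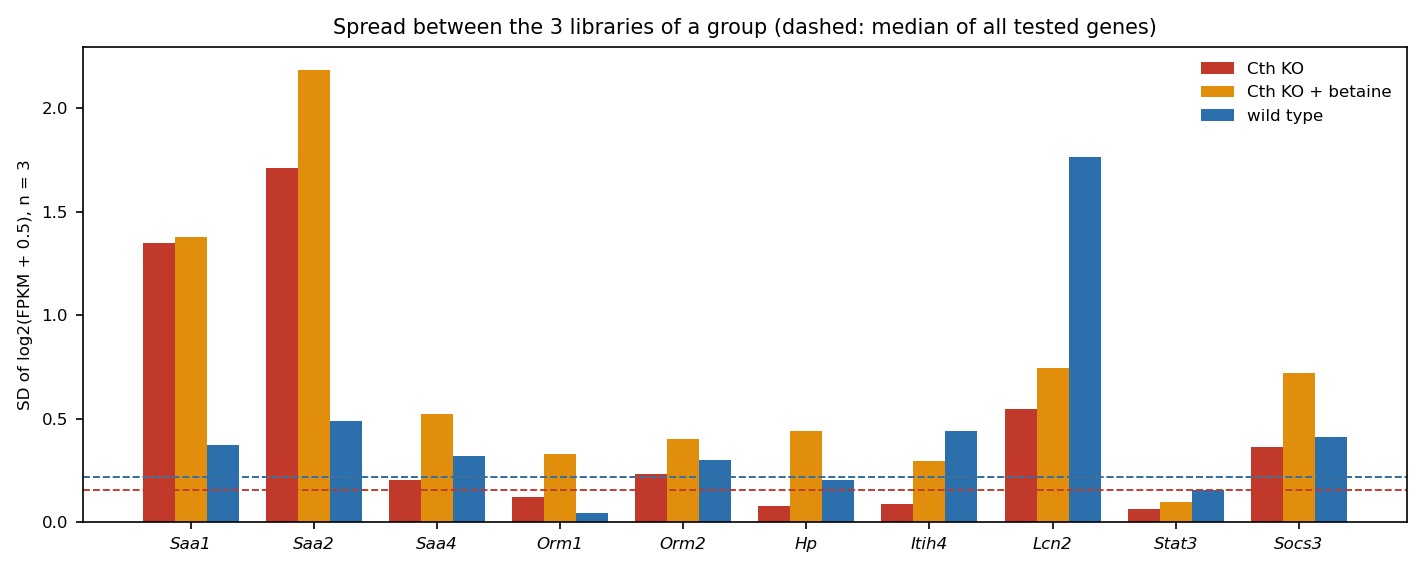
Standard deviation of log2(FPKM + 0.5) over the 3 libraries of a group for each of the 10 genes, as bars for knockout, knockout with betaine and wild type, with dashed lines at the median of all tested genes (the lines of the betaine and wild type groups, 0.217 and 0.220, nearly coincide). Saa1 and Saa2 stand at 1.35 and 1.71 in the knockout and 1.38 and 2.19 with betaine, against 0.38 and 0.49 in wild type, and the wild type bar of Lcn2 reaches 1.76.

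The spread plot shows how unevenly the members varied within a group. In the knockout the SD of Saa1 exceeded that of 99.4% of tested genes and that of Orm1 of 35.9%. In wild type the SD of Orm1 was smaller still, 0.05 on the log2 scale, above 3.71% of tested genes. The spread of Saa1 and Saa2 between libraries of 1 group is therefore as much a part of these data as their distance from wild type.

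Haptoglobin, which captures free hemoglobin, was the most abundant member. Hp (chr8:109575128-109579172) averaged 2326 FPKM over the 9 libraries, rank 31 of all genes per exon length. It had 3191, 2938 and 2887 FPKM in the knockout and 2023, 1308 and 2368 FPKM with betaine, against 1965, 2414 and 1841 FPKM in wild type. The knockout libraries lay above both other groups without overlap, while the betaine and wild type ranges overlapped. The log2 fold changes were 0.54 ± 0.22 between knockout and wild type (limma adjusted p = 0.09999), -0.70 ± 0.22 between betaine and plain water (adjusted p = 0.129, unadjusted p = 0.0111) and -0.16 ± 0.22 between betaine and wild type (adjusted p = 0.665), and none passed. Quantile normalization turned the knockout difference to -0.20 (limma adjusted p = 0.369), so its direction depends on the scaling. The knockout difference passed without betaine replicate 2 (limma adjusted p = 0.0352).

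Itih4, a hepatocyte protein cleaved by kallikrein and placed among positive acute phase proteins, was lower in both knockout groups. Itih4 (chr14:30886476-30902353) had 265, 243 and 234 FPKM in the knockout and 237, 311 and 356 FPKM with betaine, against 459, 417 and 741 FPKM in wild type. Neither knockout group overlapped wild type, and the highest wild type value is replicate 3. It fell by 1.08 on the log2 scale in the knockout (SE 0.23, limma adjusted p = 0.0128) and stood at -0.81 ± 0.23 with betaine, just short of the threshold (adjusted p = 0.0520). Without wild type replicate 3 the knockout fall was still called, at -0.82, and with the exon length trend removed it was -1.095 (limma adjusted p = 0.0170). Without knockout replicate 2 it was -1.06 and missed the threshold (limma adjusted p = 0.0523).

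Lcn2, an iron-siderophore binding protein, gave an answer that rested on 1 wild type library. Lcn2 (chr2:32384633-32388252) had 3.64, 8.25 and 4.94 FPKM in the knockout and 14.7, 4.94 and 8.33 FPKM with betaine, against 1.09, 0.723 and 10.96 FPKM in wild type. Wild type replicate 3 was higher than all 3 knockout libraries, and the other 2 wild type libraries were lower than all 6. With all libraries the log2 fold changes were 1.05 ± 0.81 in the knockout (limma adjusted p = 0.366) and 1.68 ± 0.81 with betaine (adjusted p = 0.207). Without wild type replicate 3 they were 2.06 (limma adjusted p = 0.0194) and 2.69 (adjusted p = 0.0118), both past the threshold. Across the 9 libraries Lcn2 correlated with Orm3 at a Pearson r of 0.940, a description only. The 13 neutrophil markers, of which 3 passed the filter, summed to 2.53 to 7.23 FPKM in the knockout, 2.92 to 4.48 FPKM with betaine and 1.88 to 9.11 FPKM in wild type, with the highest sum in replicate 3, and Ly6g had no read in 8 of 9 libraries. The part of neutrophil RNA in the Lcn2 values was not tested.

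**Figure D3:**
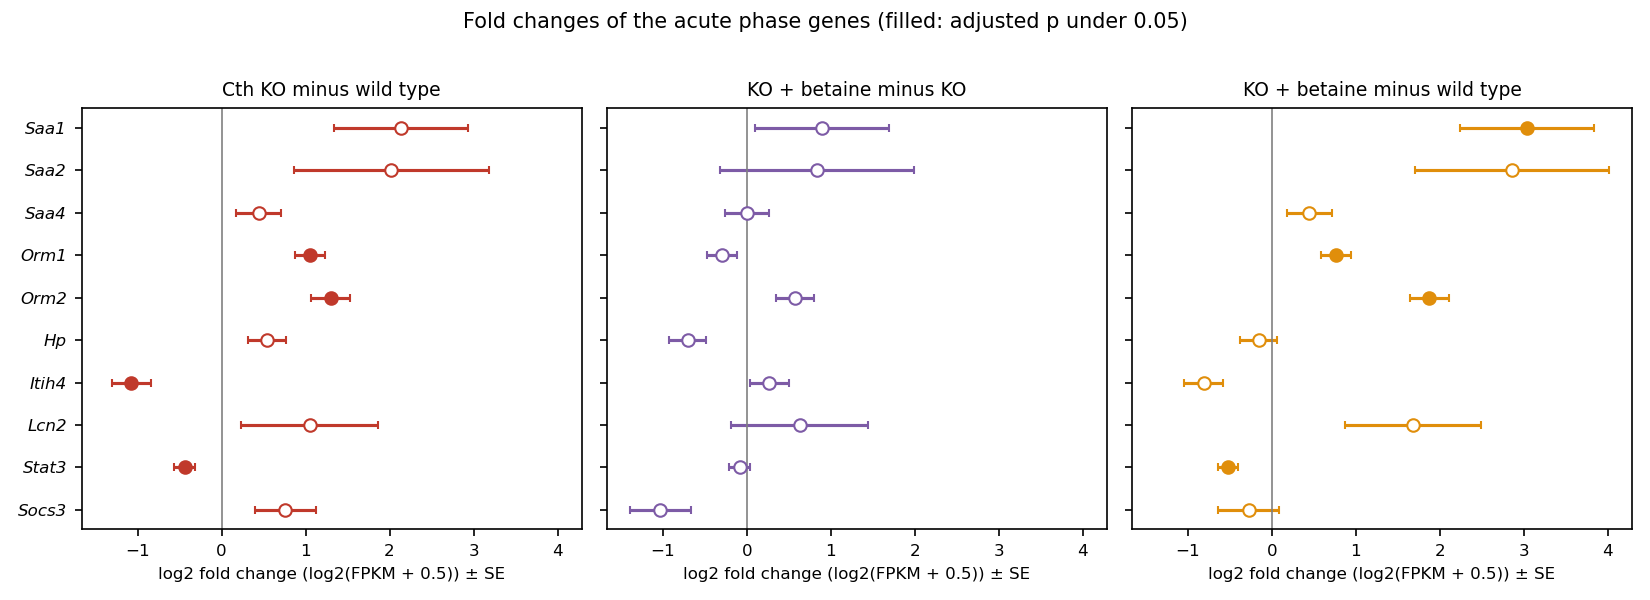
Log2 fold change ± SE of the 10 genes in the 3 comparisons (knockout minus wild type, betaine minus knockout, betaine minus wild type), with filled symbols where the limma adjusted p is under 0.05. Orm1 (1.05 and 0.76) and Orm2 (1.30 and 1.87) are filled on the right and Stat3 (-0.44 and -0.53) on the left in both comparisons with wild type, and the middle panel has no filled symbol.

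The transcription factor Stat3 fell in both comparisons with wild type, and its inhibitor Socs3 passed in none. Stat3 (chr11:100885098-100939540), whose protein carries the interleukin-6 signal, had 10.04, 10.9 and 10.05 FPKM in the knockout and 8.93, 9.98 and 10.2 FPKM with betaine, against 14.4, 12.6 and 15.8 FPKM in wild type. All 6 knockout libraries were below all 3 wild type libraries. It fell by 0.44 on the log2 scale in the knockout (SE 0.12, limma adjusted p = 0.0276) and by 0.53 with betaine (adjusted p = 0.0266). This long transcript, with 9527 bases of exon, lost its call when the length trend was removed, at -0.16 (limma adjusted p = 0.307) and -0.34 (adjusted p = 0.0720). It also lost its knockout call without wild type replicate 1 or 3 or without any 1 of the knockout libraries, at -0.37 to -0.48 (limma adjusted p = 0.0607 to 0.0851), and kept it in 12 of 20 other settings. With betaine the call was lost without wild type replicate 1 or betaine replicate 1 or 3 (limma adjusted p = 0.0686 to 0.0766).

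Socs3 (chr11:117966079-117970047) had 2.66, 4.70 and 3.88 FPKM in the knockout and 1.62, 2.78 and 0.710 FPKM with betaine, against 1.30, 2.65 and 2.14 FPKM in wild type. The knockout lay just above wild type without overlap, at 0.76 ± 0.36 (limma adjusted p = 0.150), and betaine minus plain water was -1.03 ± 0.36 (adjusted p = 0.150, unadjusted p = 0.0190). Neither passed, and the gene rested on 33 to 193 reads a library. The STAT match TTCTTAGAA begins 154 bases upstream of the Socs3 start.

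Counted by libraries alone, 5 members lay above wild type without overlap in the knockout (Saa1, Orm1, Orm2, Hp and Socs3) and 2 lay below it (Itih4 and Stat3), beside 23.6% and 23.2% of tested genes. In the betaine group 4 lay above wild type (Saa1, Saa2, Orm1 and Orm2) and 2 below (Itih4 and Stat3), beside 16.1% and 16.2%. Between betaine and plain water 0 lay above and 1 below (Hp), beside 15.6% and 14.7%. Itih4 and Stat3 thus lay below wild type in both comparisons and Saa1, Orm1 and Orm2 above it, while Saa2 overlapped wild type in the knockout and Saa4 overlapped it in both.

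**Figure D4:**
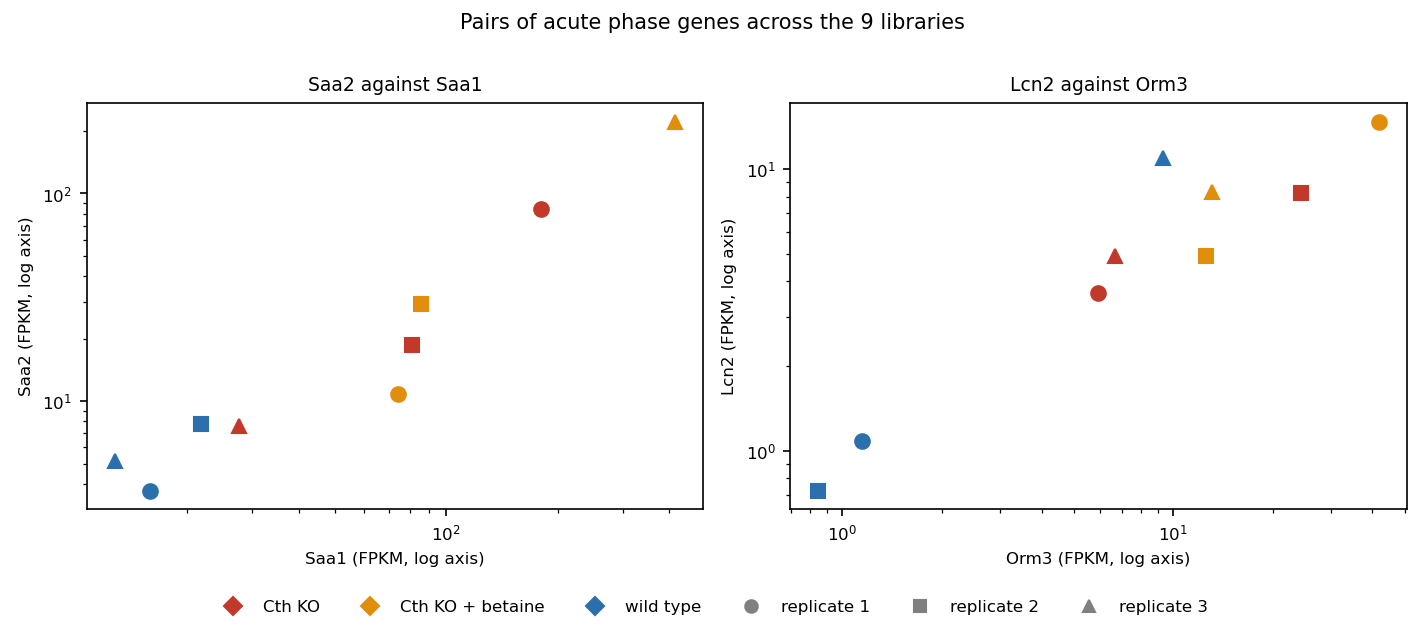
FPKM of Saa2 against Saa1 and of Lcn2 against Orm3 on log axes, 1 point a library, with colours for the 3 groups and symbols for the replicate. Saa1 and Saa2 (Pearson r of 0.959 on the log2 scale) and Lcn2 and Orm3 (0.940) are high in the same libraries, and wild type replicate 3 lies apart from the other wild type libraries in the Lcn2 panel.

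The other positive acute phase proteins went both ways. Of 31 tested of a list of 33, 3 rose and 5 fell in the knockout, 25.8% called beside 25.6% of all genes, with a median log2 fold change of -0.35. With TPM 1 rose and 12 fell, beside 588 and 3674 of all 11852 genes, whose median log2 fold change TPM put at -0.36. With quantile normalization 1 rose and 10 fell, beside 1431 and 1628 of all genes. Among those past the threshold with the smallest p, the complement proteins C3 (-1.07 ± 0.16, limma adjusted p = 0.00607) and Cfb (-1.32 ± 0.28, adjusted p = 0.0125) fell. The protease inhibitor Serpina1c (1.32 ± 0.32, limma adjusted p = 0.0178) and Lrg1, a leucine-rich glycoprotein of plasma (0.87 ± 0.23, adjusted p = 0.0240), rose. The other 4 calls, outside the naming rule, were Serpina1a (0.55), higher, and Cp (-0.44), Crp (-0.45) and the plasminogen gene Plg (-0.46), lower. C3 had 873, 795 and 792 FPKM in the knockout and 1031, 1085 and 1134 FPKM with betaine, against 1569, 1522 and 2139 FPKM in wild type. Lrg1 lost its call with the exon length trend removed (0.48, limma adjusted p = 0.150), and Serpina1c and Serpina1a belong to a family of near-identical copies, so their values are uncertain. Without wild type replicate 3, 4 of 30 tested rose and 4 fell, 26.7% beside 21.6% of all genes.

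With betaine, 0 of the 31 rose against wild type and 4 fell. They were the ferroxidase ceruloplasmin (Cp, -0.54, limma adjusted p = 0.0226), Crp (-0.66, adjusted p = 0.0236), C3 (-0.67, adjusted p = 0.0322) and the endotoxin carrier Lbp (-0.96, adjusted p = 0.0487). The median was -0.34, and 12.9% were called beside 11.7% of all genes. With wild type replicate 3 left out, 1 of 30 tested rose and 3 fell, beside 660 and 757 of all 11823 genes.

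Proteins known to fall in an acute phase, the negative reactants, were called at a share near that of all genes. Of 16, 3 rose and 1 fell in the knockout, 25% beside 25.6% of all genes, with a median log2 fold change of 0.06. With TPM 1 rose and 7 fell, where all genes moved to 588 higher and 3674 lower. Fetub (0.83, limma adjusted p = 0.0163), Apoa2 (0.92, adjusted p = 0.0352) and Apoa1 (0.81, adjusted p = 0.0413), secreted by hepatocytes, rose, and Itih2 (-0.58, adjusted p = 0.0136), another heavy chain of inter-alpha-trypsin inhibitor, fell. Without wild type replicate 3 only Fetub rose and only Itih2 fell, and with the length trend removed Apoa1 and Apoa2 did not pass. In the betaine group Itih2 alone was called (-0.75, limma adjusted p = 0.0106).

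Of 16 tested genes of interleukin-6 family receptors and JAK-STAT signalling, a list that also holds inhibitors and adaptors, 8 were called (50%, beside 25.6% of all genes) in the knockout, 6 lower and 2 higher. With TPM 10 were lower and 0 higher, beside 3674 lower and 588 higher of all 11852. Without wild type replicate 3, 5 were lower and 1 higher, 37.5% beside 21.6% of all genes. The shared receptor gp130, Il6st, had 7.78, 6.94 and 5.97 FPKM in the knockout and 7.29, 11.1 and 8.77 FPKM with betaine, against 18.2, 16.6 and 17.1 FPKM in wild type. All 6 knockout libraries were below wild type, and Il6st fell by 1.27 (SE 0.16, limma adjusted p = 0.00546) in the knockout and by 0.91 with betaine (adjusted p = 0.0117). The phosphatase Ptpn11 (-0.84, limma adjusted p = 0.00801), the kinase Jak1 (-0.74, adjusted p = 0.00987) and the interleukin-22 receptor Il22ra1 (-1.28, adjusted p = 0.0126) also fell in the knockout. The other 4 calls, outside the naming rule and given to complete the count, were Il6ra (-1.36) and Jak2 (-0.65), lower, and Cish (1.49) and Il10rb (0.52), higher.

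**Figure D5:**
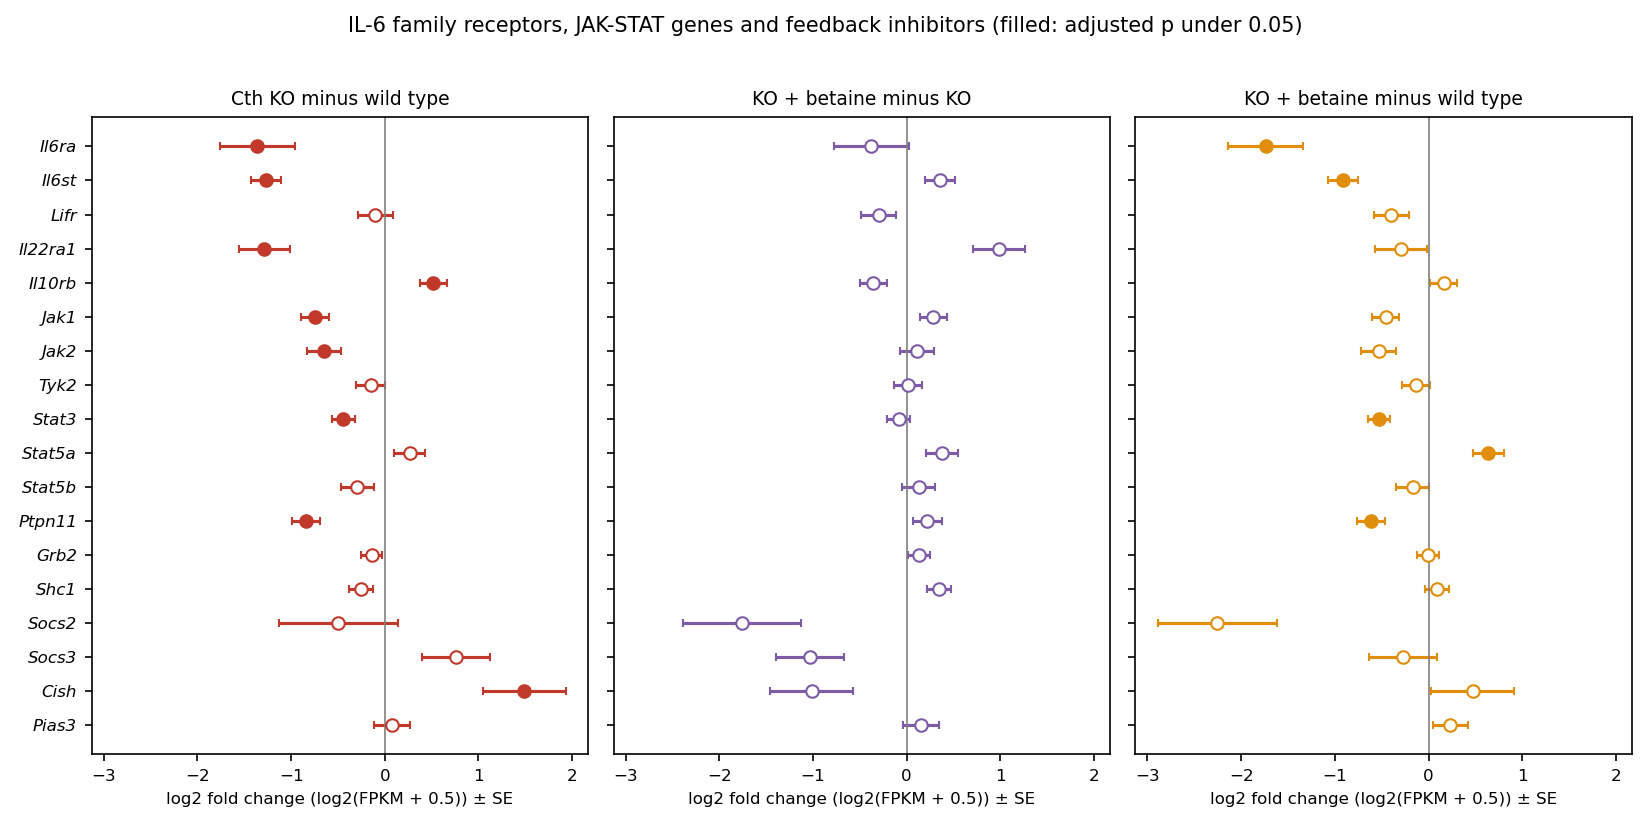
Log2 fold change ± SE of genes of interleukin-6 family receptors and JAK-STAT signalling in the 3 comparisons, with filled symbols where the limma adjusted p is under 0.05. Il6st (-1.27), Ptpn11 (-0.84) and Jak1 (-0.74) lie on the lower side and Cish (1.49) on the higher side in the knockout, and no symbol is filled in the middle panel.

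In the betaine group 4 of these 16 were called against wild type (25%, beside 11.7%). Il6ra (-1.74, limma adjusted p = 0.0292) and Ptpn11 (-0.62, adjusted p = 0.0336) fell along with Il6st, and Stat5a (0.64, adjusted p = 0.0416), a STAT of growth hormone signalling, rose. The Stat5a call was lost without wild type replicate 3, where 0 of the 16 were called higher and 4 lower. Il6ra had 7.001, 5.51 and 18.5 FPKM in the 3 wild type libraries, with the high value in replicate 3, and it was still called lower without replicate 3 in the knockout (-0.86, limma adjusted p = 0.0395) and with betaine (-1.24, adjusted p = 0.0181). With the length trend removed 6 of 16 were called in the knockout (37.5%, beside 18.6% of all genes), with Il6st at -0.96 (limma adjusted p = 0.00762). Il6 itself was near the floor, with 0 to 7 reads a library, at most 0.156 FPKM.

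The parallel pathways also gave calls in both directions. Of 16 tested genes of interleukin-1, TNF and NF-kappaB signalling, 1 rose and 3 fell in the knockout, 25% beside 25.6% of all genes, and with TPM 0 rose and 10 fell. The adaptor Traf6 (-0.69, limma adjusted p = 0.00878) and the kinases Irak4 (-0.56, adjusted p = 0.0274) and Irak1 (-0.56, adjusted p = 0.0311) fell, and the adaptor Myd88 (0.43, adjusted p = 0.0285) rose. Without wild type replicate 3, 2 rose and 2 fell in the knockout, 25% beside 21.6% of all genes. In the betaine group Traf6 alone was called (-0.58). Of 10 C/EBP, HNF, forkhead and glucocorticoid receptor factors, the receptor Nr3c1 (-0.74, limma adjusted p = 0.0092), Hnf4a (-0.66, adjusted p = 0.0161) and Foxa3 (-0.66, adjusted p = 0.0394) fell and Foxa2 (1.19, adjusted p = 0.0173) rose in the knockout, 40% of the list beside 25.6% of all genes. Without wild type replicate 3, 2 of the 10 rose and 3 fell in the knockout, 50% beside 21.6% of all genes. With betaine Foxa3 (-1.38) and Hnf4a (-0.97) were lower than wild type. With all 9 libraries the C/EBP genes whose motif the Saa promoters hold did not pass, with Cebpb at 0.31 ± 0.50 (limma adjusted p = 0.674) and Cebpd at -0.17 ± 0.37 (adjusted p = 0.754) in the knockout. Cebpb had 122, 110 and 119 FPKM in the knockout, against 78.1, 45.8 and 234 FPKM in wild type, the last in replicate 3. That library was also the highest for Cebpd, at 6.38 FPKM.

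The target lists were called unevenly. Of 11 tested STAT3 and immediate-early targets, Mcl1 alone was called in the knockout (-0.45, limma adjusted p = 0.0445), 9.09% beside 25.6% of all genes, and 0 with betaine. At an unadjusted p under 0.05 in limma there were 6 in the knockout and 2 with betaine. The 6, given outside the naming rule, were Myc (1.12), Pim1 (1.01) and Bcl3 (0.61), higher, and Mcl1, Fosl2 (-0.59) and Atf3 (-0.78), lower. Of 12 glucocorticoid receptor targets, Klf9 alone fell in the knockout (-1.90, limma adjusted p = 0.00655), 8.33% beside 25.6%. Without wild type replicate 3, 2 of the 12 fell, 16.7% beside 21.6% of all genes. With betaine 5 of the 12 were called against wild type, 41.7% beside 11.7% of all genes. Zbtb16 (-2.20), Per1 (-2.10), Pck1 (-2.11) and Klf9 (-1.18) fell and Sult1e1 (1.91), outside the naming rule, rose. With wild type replicate 3 left out, 1 of the 12 rose and 3 fell with betaine, beside 660 and 757 of all 11823 genes. The summed level of the 12 was 1334 to 1637 FPKM in the knockout, 580.3 to 1441 FPKM with betaine and 1117 to 4692 FPKM in wild type, highest in replicate 3. The 10 Kupffer cell and macrophage markers gave 0 calls in limma in both comparisons with wild type, with 2 and 0 at an unadjusted p under 0.05, and summed to 124 to 153 FPKM in the knockout, 96.9 to 246 FPKM with betaine and 187 to 232 FPKM in wild type. Between betaine and plain water 0 genes of any of these lists passed in limma, and 25 of 135 listings had an unadjusted p under 0.05, a gene in more than 1 list being counted in each. Without wild type replicate 3, 1 other positive acute phase gene was higher and 2 interleukin-1, TNF and NF-kappaB genes were lower. Of all genes 2.31% were called in that setting. With TPM 4 of the 16 JAK-STAT genes passed as higher with betaine than on plain water, where 1681 of all 11852 genes did.

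Genes outside the members that most resembled each pair over the 9 libraries were sought among 4585 genes that averaged 5 FPKM or more. The mean log2 value of Saa1 and Saa2 was closest to Set (Pearson r of 0.973), Pnp (0.965), Tmed3 (0.957), Tomm5 (0.941) and Tmem70 (0.937). That of Orm1 and Orm2 was closest to Mrap (0.974), Uros (0.972), Dtymk (0.970), Isoc2b (0.967) and Hdhd3 (0.966). Mrap had 47.1, 45.2 and 54.4 FPKM in the knockout and 50.5, 43.5 and 69.4 FPKM with betaine, against 23.5, 25.5 and 22.1 FPKM in wild type. It was chosen for its likeness to Orm1 and Orm2, so its separation of wild type from the other 6 libraries is no further result. These are descriptions over 9 libraries that share groups.

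Averaged over all 9 libraries and compared per exon length, the order of levels was Hp (2326 FPKM), Orm1 (1062), Itih4 (363), Saa4 (194), Saa1 (102), Saa2 (43.1), Orm2 (37.3), Stat3 (11.4), Lcn2 (6.40) and Socs3 (2.49). Saa1 and Saa2 were divided here by exon unions of 2478 and 2518 bases, beside 609 and 652 bases in their coding transcripts. Orm2 has 775 bases by both measures and Saa4 has 2094. The FPKM of Saa1 and Saa2 thus understate their level beside these genes, and their places below hold per exon length only. Saa2 stood above Orm2 in the betaine mean (87.1 against 58.2 FPKM), which holds the 221 FPKM of replicate 3, and Orm2 above Saa2 in the knockout mean (38.3 against 36.8 FPKM) and in wild type (15.4 against 5.54 FPKM). The neighbours Saa2 and Orm2 overlapped from library to library, at 3.71 to 221 and 12.5 to 76.9 FPKM, as did Saa4 and Saa1, while Hp exceeded Orm1 in every library. Hp averaged 3005 ± 163 FPKM in the knockout and 1900 ± 541 FPKM with betaine, against 2073 ± 301 FPKM in wild type (SD, n = 3 each). Orm1 averaged 1379 ± 116 FPKM in the knockout and 1143 ± 262 FPKM with betaine, against 663 ± 21.1 FPKM in wild type (SD, n = 3 each).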

How the data were processed

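Liver RNA was measured by sequencing of poly-A selected RNA in 9 libraries, 3 each of Cth knockout, Cth knockout with betaine and wild type, grouped by their titles. The authors deposited 1 table of FPKM values per gene and library, and per the submitters' processing notes HISAT2 2.0.5, featureCounts 1.5.0-p3, DESeq2 1.16.1 and genome build mm10 were named, with no role stated for each. Strand is not stated. Whole reads recovered with GENCODE M21 exon lengths gave library scales of 13513377 to 18528020, which do not follow each library's own read total. They were used to describe depth only, and counting error is all that the floor covers.

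The 11852 of 54532 genes that averaged 0.5 FPKM or more were tested on log2(FPKM + 0.5), since FPKM are not counts. limma 3.58.1 under R 4.3.3 fitted all 9 libraries in 1 model (eBayes with trend and robust) with 3 contrasts, two-sided, and p-values adjusted by Benjamini-Hochberg over all tested genes (threshold 0.05). Fold changes on this scale understate changes of low genes. The fit was tested on simulated data. Python 3.11.15, numpy 2.4.6, pandas 2.3.3, scipy 1.17.1 and matplotlib 3.10.9 did the rest. The members, the gene lists and the motifs were chosen with earlier results of these data known. A gene of the JAK-STAT list is not reported here. Named genes were the members, their copies Saa3 and Orm3, Cth, and up to 4 called genes of each list with the smallest p. Where fewer than 2 of a list passed, up to 2 of its genes may be named. Alternatives were other pseudocounts, filters, scalings, eBayes settings and sample sets, removal of the exon length trend, a replicate block and leaving out each library. Leaving out wild type replicate 3 together with the length trend was added after seeing the data.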

Additional observations from a re-analysis of the deposited data

How the results depend on the processing

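Over 20 other settings Orm1 kept its knockout call in 20, Orm2 in 19, Itih4 in 19 and Stat3 in 12, and against wild type with betaine Orm2 kept its call in 20, Orm1 in 11, Stat3 in 11 and Saa1 in 7. No member's called change turned round. Of 600 member values over these settings, 541 kept direction and side of the threshold, 41 lost the call, 8 gained one and 10 moved. The cause of these shifts was not tested.

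Genes called were 3029 in the knockout, 5 between betaine and plain water and 1381 for betaine against wild type, with 4, 0 and 4 members. Betaine against plain water gave 8 genes with a pseudocount of 0.1, 10 with 1, 67 with each library's own read total, 35 with only the 2 groups compared, 0 without trend and robust, and 1 with no filter. With no filter the other comparisons gave 1865 and 531 genes, and 1 member for betaine against wild type. With only the 2 groups compared, betaine against wild type gave 353 genes and 1 member. TPM gave 1754 genes and 1 member (Orm2, 0.94, limma adjusted p = 0.0495) for betaine against plain water and 2 members for betaine against wild type. TPM put the median log2 fold change of all genes at -0.36 in the knockout and at 0.33 between betaine and plain water, and 13.8% and 95.8% of its calls were higher, beside 50.1% and 40% with FPKM as deposited. The own read total put it at 0.16 between betaine and plain water and gave 37.5% and 69.6% higher in the comparisons with wild type, where the deposited values gave 50.1% and 50.4%, and 80.6% between betaine and plain water. Removing the exon length trend left 2 members called in the knockout and 1 for betaine against wild type. These were 20% and 10% of members, beside 18.6% and 9.66% of 11849 genes. Leaving out wild type replicate 3 as well gave 1877 genes in the knockout and 220 between betaine and plain water.

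Leaving out 1 library at a time gave 897 to 3243 genes and 2 to 5 members in the knockout, 0 to 882 genes and 0 members between betaine and plain water, and 347 to 1439 genes and 1 to 4 members for betaine against wild type. The knockout count differed by over 1.5 times on dropping knockout replicate 1, 2 or 3 (1950, 897 and 1707) or wild type replicate 1 (1808). For betaine against wild type it did so on dropping betaine replicate 1 or 3 (631 and 347), knockout replicate 2 or 3 (863 and 913) or wild type replicate 1 or 2 (579 and 639). For betaine against plain water it was 882 on dropping betaine replicate 1, 273 on dropping wild type replicate 3, 0 on dropping knockout replicate 2 or 3, and 1 on dropping betaine replicate 2 or wild type replicate 1. Same-numbered libraries did not deviate together (correlations of -0.227 to 0.098), and not every library correlated best with its own number, so the numbers were not taken to pair libraries. With the replicate block 2210, 0 and 671 genes and 3, 0 and 1 members were called. With 3 libraries a group, differences of Saa1, Saa2 and Lcn2 are the least precise.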
